A study of Mus musculus with 39 samples.

Results

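The acute-phase reactant RNAs described here come from 10 genes whose proteins are known to change in plasma after injury or infection. They are the serum amyloid A genes Saa1, Saa2 and Saa4, the orosomucoid genes Orm1, Orm2 and Orm3, the pentraxin genes Apcs and Crp, the lipopolysaccharide binding protein gene Lbp, and the lipocalin gene Lcn2. All 10 were listed in both tables of TPM (transcripts of a gene among those of its library, scaled for length to a fixed total), among the 13230 genes that the tables share (13982 genes for gradient 1 and 13634 for gradient 2). All 10 also passed the filter on low TPM used for the tests.

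In the acute-phase response, cytokines of the interleukin and tumor necrosis factor families signal through STAT, NF-kB and C/EBP factors in hepatocytes and change the output of secreted plasma proteins. Serum amyloid A, orosomucoid and serum amyloid P component (the product of Apcs) are major positive acute-phase proteins in the mouse, whereas Crp is a weak one in this species. Their mRNAs encode signal peptides and are translated at the endoplasmic reticulum.

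The samples were livers of wild-type FVB female mice, homogenized with beads without detergent, cleared of nuclei and resolved by ultracentrifugation on sucrose gradients. Each of the 2 gradients held the liver of 1 mouse, no animal was treated, and the age of the mice is not given in the sources used here. Gradient 1 had 17 libraries, of fractions 4 to 19 and 21, and gradient 2 had 22 libraries, of fractions 3 to 24, with density rising with the fraction number. Each library, depleted of ribosomal RNA, was started from the same mass of RNA, so TPM gives the share of an RNA in its fraction and not its amount in the gradient.

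TPM keeps no read counts, so the depth of the 39 libraries is unknown, and precision is known only from the spread between gradients (n = 2). Totals ran from 998099 to 999202 TPM. Hepatocyte RNAs were abundant: 8 of 8 hepatocyte markers were present, with a summed mean TPM of 19689.5 in gradient 1 and 23822 in gradient 2, led by Alb. The lightest libraries stood apart, since the noncoding RNA Rpph1 took 25.0% of TPM in fraction 4 of gradient 1, and 22.1% in fraction 3 and 13.4% in fraction 4 of gradient 2.

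Several of the genes are close copies of each other. The Saa genes lie together on chromosome 7 of GRCm38 in GENCODE M21: Saa4 at chr7:46727998-46732603 and Saa1 at chr7:46740497-46742980 on the minus strand, and Saa2 at chr7:46751790-46754313 on the plus strand. The Orm genes lie together on the plus strand of chromosome 4, with Orm1 at chr4:63344560-63348163, Orm3 at chr4:63356162-63359511 and Orm2 at chr4:63362449-63365878. The pentraxin genes are near each other on chromosome 1, Crp at chr1:172698055-172833031 on the plus strand and Apcs at chr1:172893961-172895041 on the minus strand. Lcn2 (chr2:32384633-32388252, minus strand) and Lbp (chr2:158306493-158332852, plus strand) are both on chromosome 2. The Crp gene model spans the processed pseudogene Gm38051 on the same strand, and the other 9 gene models overlap no other gene.

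How far reads could be told apart differed between the families. The coding sequences of Saa1 and Saa2 were identical at 348 of 366 aligned bases (95.1%), yet 1 transcript of each shared only 2 identical windows of 75 bases, the length of a read, of 535 windows in Saa1. Orm1 and Orm2 were identical at 89.9% of coding bases and shared 97 of 701 windows (13.8%), whereas Orm1 and Orm3 shared 0. Apcs and Crp were identical at 60.3% of aligned coding bases and shared 0 windows. Levels of Orm1 and Orm2 are uncertain to the extent that their shared reads were split by estimation, and the mice were FVB while the reference is another strain. The opening 75 coding bases show how close the copies are, with capitals at bases that differ from Saa1 in the Saa genes and from Orm1 in the Orm genes.
Saa1: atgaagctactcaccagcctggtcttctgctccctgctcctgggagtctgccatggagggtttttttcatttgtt
Saa2: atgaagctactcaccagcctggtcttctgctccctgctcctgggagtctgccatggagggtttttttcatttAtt
Saa4: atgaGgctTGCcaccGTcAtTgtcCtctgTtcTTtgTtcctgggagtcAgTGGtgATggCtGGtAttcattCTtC
Orm1: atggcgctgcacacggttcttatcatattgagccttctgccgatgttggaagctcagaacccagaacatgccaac
Orm2: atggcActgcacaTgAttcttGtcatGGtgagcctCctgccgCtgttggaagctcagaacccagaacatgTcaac
Orm3: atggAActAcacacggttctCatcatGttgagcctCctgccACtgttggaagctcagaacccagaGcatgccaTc

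The levels of the 10 RNAs spanned a wide range within the same livers. Orm1, which encodes an abundant plasma glycoprotein, was the highest, with a mean TPM of 304 ± 103 (SD, n = 2 gradients) over the 17 fractions present in both gradients. It was followed by Saa4, the constitutively expressed serum amyloid A gene, at 144 ± 50.2, by Apcs at 73.0 ± 15.6 and by Crp at 68.4 ± 15.7 TPM. The inducible genes Saa1 (21.7 ± 8.11 TPM) and Saa2 (17.9 ± 9.86 TPM) were far below Saa4. Lbp had 18.9 ± 6.51, Orm3 11.8 ± 4.49, Lcn2 5.77 ± 0.241 and Orm2 4.81 ± 0.753 TPM. The ranges of the 2 gradient means overlapped between Apcs and Crp, and between neighbors in the order Saa1, Lbp, Saa2 and Orm3. By the mean of each gradient Apcs was above Crp, Saa1 above Saa2 and Saa2 above Orm3, whereas Lbp changed its place in the order. The other neighbors had gradient means that did not overlap, although their values in single fractions did.

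**Figure D1:**
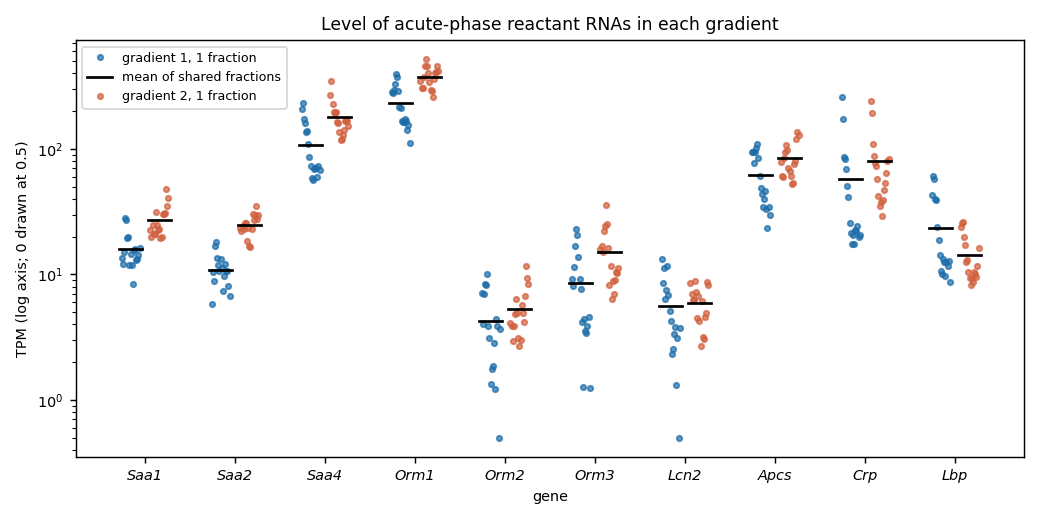
TPM of each acute-phase reactant RNA (log axis) in each fraction that both gradients have, with blue points for gradient 1, orange points for gradient 2 and black lines for the means. Saa2 was higher in gradient 2 in all 17 fractions, and Lbp was lower in gradient 2 in 15 of 17.

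The serum amyloid A RNAs were at a higher level in gradient 2. Medians and ranges of levels here and below are over the 17 shared fractions. Saa1 ran from 8.39 TPM through a median of 14.7 to 28.0 in gradient 1, and from 19.5 through 24.6 to 48.4 in gradient 2. Saa2 ran from 5.80 through a median of 10.6 to 18.2 TPM in gradient 1 and from 16.6 through 24.5 to 34.8 in gradient 2. For Saa2 the highest fraction of gradient 1 lay above only the lowest fractions of gradient 2, and gradient 2 was higher in all 17 shared fractions. Its means were 10.9 and 24.9 TPM, a log2 ratio of 1.19. For Saa1 the means were 15.9 and 27.4 TPM (log2 ratio 0.78, higher in gradient 2 in 15 of 17 fractions). Saa4, a component of high-density lipoprotein at rest, ran from 56.9 through a median of 73.4 to 234 TPM in gradient 1 and from 118 through 166 to 347 TPM in gradient 2. It was higher in gradient 2 in all 17 shared fractions, with a log2 ratio of 0.73, although the values of the gradients overlapped. By the medians the log2 ratio of Saa4 was 1.17, past 2-fold.

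The orosomucoid RNAs differed among themselves. Orm1 ran from 113 through a median of 213 to 395 TPM in gradient 1 and from 259 through 377 to 518 TPM in gradient 2, and it was higher in gradient 2 in all 17 shared fractions (log2 ratio 0.71). Orm3 had means of 8.61 and 15.0 TPM (log2 ratio 0.80) and was also higher in all 17. Orm2 had means of 4.28 and 5.34 TPM (log2 ratio 0.32), was higher in 11 of 17 and was listed at 0 in fraction 19 of gradient 1. The values of the gradients overlapped for all 3 genes.

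The pentraxins bind phosphocholine and other exposed ligands on microbes and damaged cells. Crp had a median of 24.5 TPM in gradient 1, from 17.4 to 260, and of 63.9 in gradient 2, from 29.0 to 242. Its means were 57.3 and 79.5 TPM (log2 ratio 0.47, higher in gradient 2 in 16 of 17 fractions), and the peaks at the top of the gradients were alike while the denser fractions separated. By the median its log2 ratio was 1.39, past 2-fold. Apcs had a median of 48.8 TPM in gradient 1, from 23.3 to 110, and of 78.7 in gradient 2, from 52.7 to 137. Its log2 ratio was 0.44 and gradient 2 was higher in 11 of 17 fractions, so the direction depended on the fraction.

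Lbp, whose protein transfers bacterial lipopolysaccharide to CD14, was the exception. It ran from 8.68 through a median of 13.2 to 60.7 TPM in gradient 1 and from 8.28 through 11.8 to 26.3 TPM in gradient 2. The means were 23.5 and 14.3 TPM, a log2 ratio of -0.72 (-0.16 by the medians), and gradient 2 was lower in 15 of 17 fractions, with the widest gaps in fractions 4 to 8. Lcn2, whose protein sequesters bacterial siderophores, had means of 5.59 and 5.94 TPM (log2 ratio 0.085), medians of 4.25 and 6.24 TPM (log2 ratio 0.55), was higher in gradient 2 in 9 of 17 fractions, and was listed at 0 in fraction 19 of gradient 1.

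These level differences are 1 mouse against 1 and have no test, and fewer cells of a type cannot be told apart from less RNA per cell. Of the 10 RNAs, 1 was past 2-fold higher in gradient 2 (Saa2), beside 2.55% of the 11936 genes whose mean in the higher gradient reached 1 TPM, and 0 were past 2-fold lower, beside 4.40%. The count of those higher was 3 by the median TPM (Saa2, Saa4 and Crp) and 2 after quantile normalization, without a share of all genes. At a threshold of 1.5-fold, 5 of 10 were higher (Saa1, Saa2, Saa4, Orm1 and Orm3), beside 6.74% of genes, and 1 was lower (Lbp), beside 16.9%. By the median TPM, Apcs and Crp were added and Lbp was no longer past this threshold, which made 7 of 10 higher, beside 11.2% of genes, and 0 lower, beside 18.5%. Lbp was also not past it after quantile normalization. Higher values in gradient 2 in every shared fraction were seen for 4 of 10 (Saa2, Saa4, Orm1 and Orm3), beside 5.45% of genes. The median log2 ratio of the 10 was 0.59, and that of all genes was -0.19. All but Lbp, 9 of 10, were higher in gradient 2, also under each of the 5 alternatives for the level, beside 32.5% of genes. Relative to the median of all genes with a ratio, Saa2 was higher by 1.37, Orm3 by 0.98 and Saa1 by 0.97 on the log2 scale, and Lbp was at -0.53.

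Hepatocyte markers were higher in gradient 2 as well: 7 of 8 had a higher mean there, with a median log2 ratio of 0.68, 5 of 8 were past 1.5-fold, and 4 of 8 were higher in every shared fraction, although Alb, the most abundant, was at -0.31. Their part in the levels of the acute-phase RNAs was not tested.

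Related genes did not share a single direction. Of 21 other positive acute-phase genes with enough TPM, 14 were higher in gradient 2, with a median log2 ratio of 0.16. Hamp, the iron hormone hepcidin, had a log2 ratio of 0.41, whereas the metallothionein genes Mt1 and Mt2 were past 2-fold lower in gradient 2 (-1.62 and -1.50). Of 9 negative acute-phase genes, 5 were higher in gradient 2, 4 of them past 1.5-fold, with a median of 0.58, and Serpina6, which encodes the corticosteroid carrier of plasma, was past 2-fold higher (1.75). Of 18 plasma protein genes not induced in the acute phase, 13 were higher, with a median of 0.27. These lists overlap: 6 of the 9 negative acute-phase genes (Alb, Ttr, Trf, Rbp4, Apoa1 and Ahsg) are also among the 18, and Alb, Ttr and Apoa1 are hepatocyte markers as well. Of 13 transcription factors and inhibitors tested, 3 were higher in gradient 2, with a median of -0.41. Rela (-1.07) and Socs3 (-1.04), the feedback inhibitor of cytokine signaling, were past 2-fold lower, and the most abundant, Cebpa, Hnf4a and Cebpb, were at -0.63, -0.23 and 0.67. Of 8 cytokine ligands listed, 3 had values in both tables. Il1b had a ratio of 0.64, Il1a of -0.36 and Ctf1 of -0.26, at means under 12 TPM in both gradients. The other 5 (Il6, Tnf, Lif, Osm and Il22) were not among the genes that the tables share.

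Of 10 neutrophil markers, 4 had values in both tables, with a summed mean of 26.6 TPM in gradient 1 and 17.6 in gradient 2. Ly6g was the most abundant (12.0 and 10.7 TPM), none of the 4 was at 0 throughout, and S100a8 and S100a9 were past 2-fold lower in gradient 2 (log2 ratios -2.69 and -1.96). Ly6g and Cxcr2 were both at -0.16 and Lcn2, which neutrophils also make, was at 0.085 (0.55 by the medians). Kupffer cell markers (10 of 10 present, led by Cd5l) summed to 147 and 156 TPM, endothelial markers (7 of 7, led by Clec4g) to 64.9 and 46.1, and stellate cell markers (6 of 6, led by Dcn) to 40.4 and 46.2. Their median log2 ratios were 0.071, -0.36 and 0.15, and past 1.5-fold 1 of 10 Kupffer cell markers was higher, 1 of 6 endothelial markers tested was lower and 0 of 6 stellate cell markers were either. The part of these cells in the levels of the acute-phase RNAs was not tested.

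For the position in the gradient, fractions 4 to 7 were taken as the light zone, 10 to 13 as the middle zone and 16 to 19 as the dense zone. Means of log2(TPM + 1) over each zone gave 6 values per gene, which were compared with limma over 11754 genes, with the gradients as replicates. Differences are on the log2(TPM + 1) scale, which understates changes of low RNAs. The median gene was lower by 0.43 in the dense than in the light zone (a log2 difference of -0.43, or -0.053 after quantile normalization), at 0.046 for middle minus light and at -0.28 for dense minus middle. Of all genes called between the dense and light zones 64.0% were lower in the dense zone, and 49.4% after quantile normalization. Between the dense and middle zones these shares were 82.5% and 57.1%.

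Crp and Lbp fell from the light zone to both denser zones. Crp had 260, 172, 86.6 and 83.6 TPM in fractions 4 to 7 of gradient 1 and 242, 192, 110 and 87.9 TPM in gradient 2. In the dense zone it had 19.7 to 24.5 TPM in gradient 1 and 47.1 to 79.8 TPM in gradient 2. Every light fraction lay above every dense fraction of either gradient. The difference of the dense from the light zone was -1.91 ± 0.48 (SE; -2.54 and -1.27 in gradients 1 and 2; limma adjusted p = 0.0165), or -1.48 relative to the median gene. That of the middle from the light zone was -2.07 ± 0.48 (adjusted p = 0.0170, lower in both gradients).

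Lbp had 43.2, 60.7, 57.5 and 39.9 TPM in fractions 4 to 7 of gradient 1 and 23.8, 25.7, 26.3 and 19.8 TPM in gradient 2, against 9.80 to 12.7 TPM and 9.55 to 11.8 TPM in the dense zones. Here, too, no light fraction overlapped a dense one. The dense minus light difference was -1.56 ± 0.36 (-2.00 and -1.11 in the gradients; limma adjusted p = 0.0119), or -1.13 relative to the median gene, and the middle minus light difference was -1.50 ± 0.36 (adjusted p = 0.0187).

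Of the 10 RNAs, 3 were called lower in the dense than in the light zone (Crp, Lbp and Lcn2), beside 39.6% of all genes tested, and 2 were called lower in the middle than in the light zone (Crp and Lbp), beside 24.1%. None was called higher in either comparison, where 22.3% and 23.5% of all genes were. For Lcn2 the mean TPM of the light zone was 9.85 in gradient 1 and 7.01 in gradient 2, and that of the dense zone 2.06 and 5.30. The dense zone was lower in both gradients on the log2 scale (-2.02 and -0.41; mean -1.21 ± 0.42, limma adjusted p = 0.0457). The call was lost in 5 of 10 alternatives, with adjusted p from 0.0125 to 0.194. In these the difference was -1.77 with a pseudocount of 0.1, -1.31 with rescaled TPM, -1.09 in a light zone without fraction 4 and -0.71 after quantile normalization, without and with the replicate block.

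The animals pair the zones, and with the gradient as a replicate block 5 of 10 were called lower in the dense than in the light zone, beside 50.0% of genes, since Saa4 and Orm3 were added. Saa4 fell by 1.07 on the log2 scale (adjusted p = 0.0938 unpaired and 0.00484 with the replicate block; -1.47 and -0.66 in the gradients). Orm3 fell by 1.09 (0.0825 and 0.00131; -1.31 and -0.86), or by 0.66 relative to the median gene. After quantile normalization Orm3 was at -0.67 (adjusted p = 0.292, and 0.00485 with the replicate block) and Saa4 at -1.36 (0.0555 and 0.00195). With both, 4 of 10 were called lower (Crp, Lbp, Saa4 and Orm3), beside 39.6% of genes. In the middle zone the replicate block added Saa4, which made 3 of 10 lower than in the light zone, beside 35.0% of genes. The light zone had 161 to 234 TPM of Saa4 in gradient 1 and 199 to 347 in gradient 2, above all dense fractions of the same gradient.

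**Figure D2:**
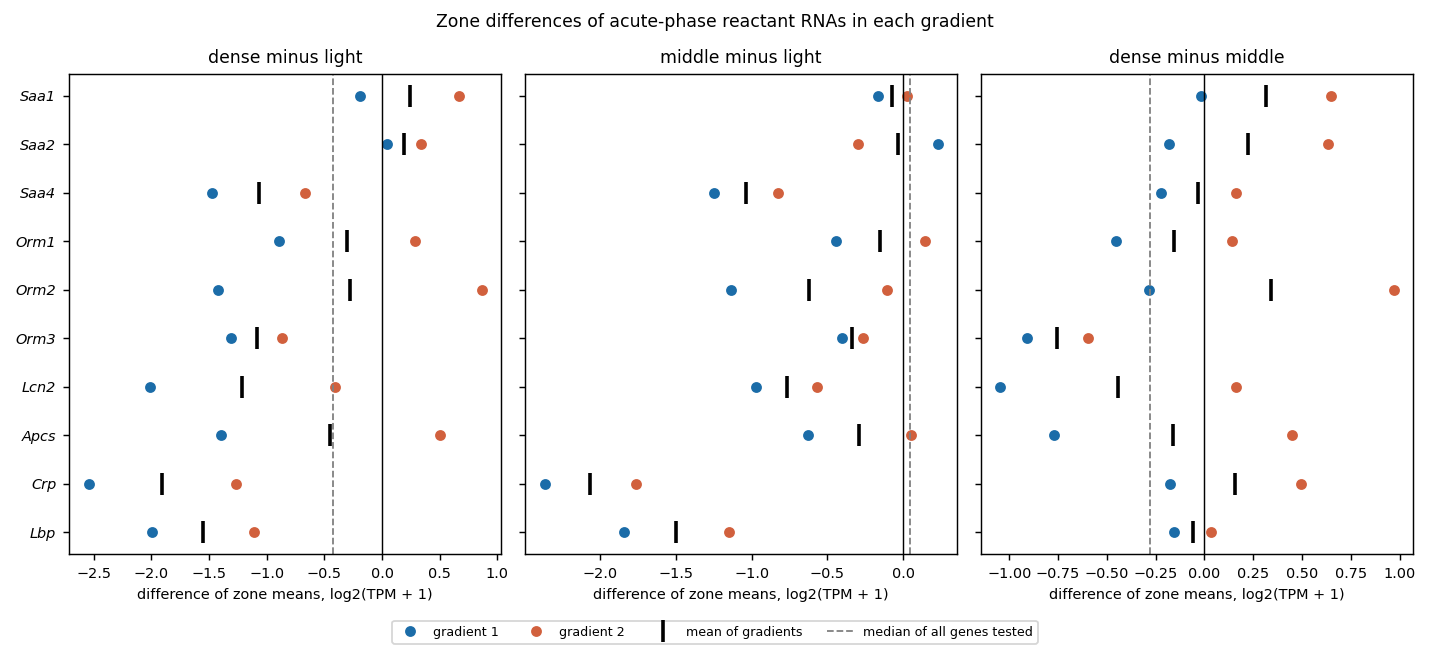
Differences between zone means of log2(TPM + 1) for each acute-phase reactant RNA, as points for gradient 1 (blue) and gradient 2 (orange), with black bars for the mean of both and a dashed line for the median of all genes tested. Crp, Lbp, Saa4, Orm3 and Lcn2 lie left of 0 in both gradients for dense minus light and middle minus light. For dense minus middle 9 of 10 RNAs have points on both sides of 0 (3 of 10 below 0 in gradient 1 and above 0 in gradient 2 after quantile normalization).

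The remaining members were not called in any zone comparison. For Saa1 the dense zone had 13.0 to 16.1 TPM in gradient 1 and 30.4 to 48.4 TPM in gradient 2, against 12.1 to 28.0 and 19.7 to 24.6 TPM in the light zone. The dense minus light difference was 0.24 (-0.19 and 0.67 in the gradients; limma adjusted p = 0.668). Saa2 was at 0.19, Orm1 at -0.31, Orm2 at -0.28 (0.32 after quantile normalization) and Apcs at -0.45, with adjusted p from 0.458 for Apcs to 0.800 for Saa2. Saa1, Orm1, Orm2 and Apcs had opposite signs in the 2 gradients. Quantile normalization put Saa1 at 0.50, Saa2 at 0.52, Orm1 at -0.71 and Apcs at -0.43, and these were not called either.

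Between the middle and dense zones limma called 0 of 10, in either direction and also at an unadjusted p under 0.05, beside 27.3% of genes called. With the replicate block, Orm3 was called lower in the dense zone (a fall of 0.75, adjusted p = 0.00914), 1 of 10 beside 39.3% of genes. Without the block its difference was -0.37 after quantile normalization and -0.22 with zones moved by 1 fraction, against -0.75 as deposited, and it was not called (adjusted p from 0.149 to 0.832 over the alternatives without the block). With the block and quantile normalization it was not called either (adjusted p = 0.0591), 0 of 10 beside 26.5% of genes. The dense minus middle difference was below 0 in gradient 1 and above 0 in gradient 2 for 9 of 10 RNAs, all but Orm3, beside 8.65% of the 11754 genes, but this count depended on the scaling and the zones: it was 3 of 10 after quantile normalization (beside 8.42% of genes), 5 with zones of 3 fractions (7.32%) and 4 with zones moved by 1 fraction (8.83%). With rescaled TPM it was 8 of 10 (10.7%) and with a pseudocount of 0.1 it was 9 (8.69%). Orm2 (-0.29 and 0.97), Apcs (-0.77 and 0.45) and Lcn2 (-1.05 and 0.16) had the widest gaps. Lbp (-0.15 and 0.034) and Saa1 (-0.019 and 0.65) were close to 0 in 1 gradient. With TPM as deposited, the same pattern was seen in 13 of 21 other positive acute-phase genes, in 3 of 9 negative ones, in 7 of 18 plasma protein genes not induced in the acute phase and in 0 of 18 genes of cytosolic enzymes. This difference between the gradients was not tested.

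**Figure D3:**
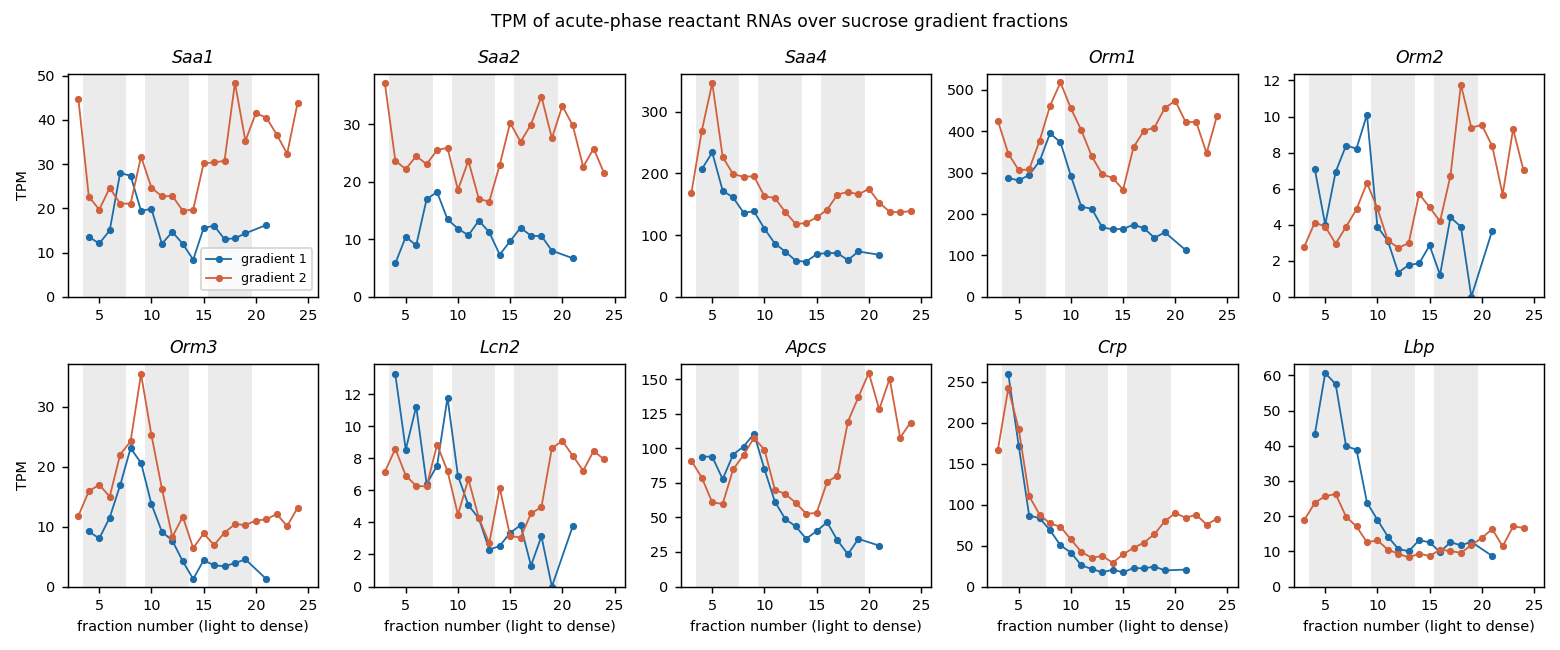
TPM of each acute-phase reactant RNA against the fraction number, from light to dense, for gradient 1 (blue, 17 fractions) and gradient 2 (orange, 22 fractions), with the zones shaded. Crp was highest in fraction 4 of both gradients, whereas Apcs was highest in fraction 9 of gradient 1 and in fraction 20 of gradient 2.

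The profiles differed in how well they repeated between the gradients. Over the 17 shared fractions, which are neighbors and share their library's composition, Pearson's R between the gradients was 0.960 for Crp, 0.933 for Saa4, 0.932 for Lbp and 0.893 for Orm3. It was 0.399 for Lcn2, 0.336 for Orm1, -0.0919 for Saa1, -0.0931 for Apcs, -0.116 for Orm2 and -0.206 for Saa2. These values depended on how fractions were matched. With gradient 2 shifted by 1 fraction in either direction, R was 0.0536 or 0.639 for Lcn2, 0.288 or 0.143 for Orm1, 0.784 or 0.723 for Saa4, 0.868 or 0.806 for Crp and 0.905 or 0.684 for Orm3, and it went as low as -0.352 for Orm2, -0.327 for Saa2 and -0.314 for Apcs. With log2 profiles it was 0.234 for Lcn2 and 0.0269 for Saa1. The median of the 10 was 0.368, and the median over 11371 genes averaging 1 TPM or more in each gradient was 0.904. Other positive acute-phase genes had a median R of 0.916 and plasma protein genes not induced in the acute phase had 0.893. Among the 10 members, Spearman's rho with transcript length was 0.657 for R between the gradients and -0.754 for the dense minus light difference. The part of transcript length was not tested.

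The peaks show where the gradients parted. Saa4 was highest in fraction 5 of both gradients, and Orm1 and Orm3 were highest in fraction 8 of gradient 1 and fraction 9 of gradient 2. Saa1 was highest in fraction 7 of gradient 1 and in fraction 18 of gradient 2 (48.4 TPM). Its values in fractions 3 (44.7 TPM) and 24 (43.9 TPM) of gradient 2 were close to that. Orm2 was highest in fraction 9 of gradient 1 and fraction 18 of gradient 2, at only 10.1 and 11.8 TPM. Orm1 kept its peak near fraction 9 but in gradient 2 came back from 259 TPM in fraction 15 to 474 TPM in fraction 20, whereas in gradient 1 it had 164 TPM in fraction 15 and 113 TPM in fraction 21. Apcs likewise went from 52.7 TPM in fraction 14 to 155 TPM in fraction 20 of gradient 2 and had 29.6 TPM in fraction 21 of gradient 1. Crp went from 29.0 TPM in fraction 14 to 89.8 TPM in fraction 20 of gradient 2, above its 87.9 TPM in fraction 7, and had 20.7 TPM in fraction 21 of gradient 1. Fraction 20 has no library in gradient 1.

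The center of sedimentation, the mean fraction number weighted by TPM over the shared fractions, placed Crp nearest the top (7.93 in gradient 1 and 10.0 in gradient 2). Lbp (9.04 and 10.6), Orm3 (9.56 and 10.6) and Saa4 (9.89 and 11.0) were next to it in gradient 2. Saa1 (11.6 and 13.1) and Orm2 (10.0 and 13.6) were the densest in gradient 2. All 10 centers were at a higher fraction number in gradient 2, beside 42.0% of 11371 genes, also with TPM rescaled and after quantile normalization, while the median of all genes was 11.3 in both gradients. The median center of several related lists was also higher in gradient 2, from 9.19 to 10.9 for other positive acute-phase genes, from 8.60 to 11.2 for negative ones and from 9.11 to 11.0 for plasma protein genes not induced in the acute phase. It went from 9.11 to 9.77 for receptors and transducers and from 14.9 to 15.1 for cytosolic enzymes, and was 12.2 and 12.1 for transcription factors and inhibitors.

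Some pairs of members had like profiles in both gradients. Within a gradient, Crp and Lbp had R = 0.77 in gradient 1 and 0.81 in gradient 2, and Saa4 had 0.94 and 0.78 with Lbp and 0.88 and 0.79 with Crp. Orm1 and Apcs had 0.96 and 0.76, and Saa1 and Saa2 had 0.78 and 0.70. Orm2 and Apcs had 0.78 and 0.71, Saa1 and Apcs 0.58 and 0.71, and Orm1 and Orm3 0.96 and 0.50. Over all 45 pairs the median R was 0.665 in gradient 1 and 0.256 in gradient 2, and 44 and 30 pairs were above 0.

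The genes most like a member were chosen by their R with it. Among 6729 genes averaging 10 TPM or more in each gradient, the profiles most like Crp by the mean of R over 17 and 22 fractions were those of Hsd17b12 (0.988), Msmo1 (0.981) and Kdelr2 (0.978), which encode enzymes of lipid and sterol synthesis and a receptor for escaped endoplasmic reticulum proteins. Those most like Saa4 were Zdhhc9 (0.983), Insig1 (0.982) and S1pr1 (0.974), and those most like Lbp were Cyp4f14 (0.977), the complement gene Cfb (0.968) and Slc20a2 (0.962). The lists for Orm1 and Apcs shared Mup1 and Mup9. Orm1 was most like the major urinary protein genes Mup1 (0.903) and Mup9 (0.882) with Hsd17b6 (0.890), and Apcs like Mup1 (0.893), Mup9 (0.892) and Ambp (0.890). Saa1 was most like Apom (0.747), C8g (0.746) and Tmem37 (0.744), and Saa2 like Saa1 (0.740), Sdf2l1 (0.566) and C8g (0.558).

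The lists of related genes put the zone counts of the acute-phase RNAs in context. Between the dense and light zones 39.6% of all genes tested were called lower in the dense zone and 22.3% higher. With the replicate block 50.0% of them were lower, and 3589 of 11754 genes were higher. Of 21 other positive acute-phase genes tested with limma, 13 were called lower in the dense than in the light zone and 0 higher, and Hamp was at 1.08 (adjusted p = 0.0524, and 0.0268 with the replicate block). With the replicate block these counts were 16 and 1. Of 9 negative acute-phase genes 4 were called lower, led by Alb (-2.59) and Trf (-2.31), and 1 higher. Of 13 receptors and transducers 8 were called lower, such as Irak1 (-3.53) and the leukemia inhibitory factor receptor Lifr (-1.99), and Jak1 was called higher (1.33). Transcription factors and inhibitors were split, with 3 of 13 lower, among them Hnf4a (-1.08), and 3 higher, and 2 of 3 cytokine ligands were lower. With the replicate block 5 of 13 transcription factors and inhibitors were lower and 6 higher, and 10 of 13 receptors and transducers were lower and 3 higher. Plasma protein genes had 10 of 18 lower and 1 higher (Apoa2, 1.25), and cytosolic enzymes 0 lower and 18 of 18 higher, such as Hpd (3.08). With the replicate block 5 of 9 negative acute-phase genes and 13 of 18 plasma protein genes were lower, with 1 higher in each list, and the counts of cytokine ligands and cytosolic enzymes stayed the same.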

How the data were processed

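The authors pseudo-aligned reads of 75 bases with Kallisto (version not given in the sources used here) to RefSeq transcripts of mm10. They deposited 1 table of TPM per gradient, by gene symbol, without genes that never exceeded a TPM of 1. The submitters' processing notes also name bcl2fastq 2.16.0.10. How transcripts were summed to genes is not given in the sources used here. The number of columns matched to no sample was 0.

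From these values, zone means of log2(TPM + 1) were compared with limma 3.58.1 (R 4.3.3, eBayes with trend, Benjamini-Hochberg over all genes tested, calls at an adjusted p under 0.05), for genes averaging 1 TPM or more over the 24 zone libraries. The fit without the replicate block was also run on simulated data of independent values with no gradient effect, as a check. Levels, profiles and centers are descriptions with no test. Alternatives were the replicate block, pseudocount, filters, quantile normalization, TPM rescaled without the 50 most abundant genes, other zones, fold thresholds and shifted fractions. A light zone without fraction 4, quantile normalization with the replicate block, and quantile normalization for the centers were chosen after seeing the data. Python 3.11.15 and pandas 2.3.3 were used. Transcripts and coordinates are from GENCODE M21, with 1 transcript per gene.

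All zones of 1 gradient share an animal, so the replicate numbers pair them. Deviations of the gradients correlated across 11754 genes, which are not independent, between light and middle (r = 0.665), light and dense (r = 0.540) and middle and dense zones (r = 0.798).

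The members and lists were chosen with earlier results of these data known. Named genes are all members, the 3 genes of highest mean TPM in each other list, list genes past 2-fold between gradients where a list had 5 or fewer, and the 3 genes most like each member averaging 10 TPM or more in each gradient. Outside this rule, Rbp4, Apoa1 and Ahsg are named as genes shared between lists, and Il6, Tnf, Lif, Osm and Il22 as listed genes without values. Rpph1, the pseudogene Gm38051 and Saa3 are named as well.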

Additional observations from a re-analysis of the deposited data

How the results depend on the processing

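Crp and Lbp were called lower in the dense and in the middle than in the light zone in 11 of 11 alternative fits. With the replicate block, 5 members in place of 3 were called lower in the dense than in the light zone and 1 in place of 0 lower in the dense than in the middle zone. The counts were also 5 and 1 with the replicate block and a light zone without fraction 4, an alternative chosen after seeing the data. With the replicate block and quantile normalization, also chosen then, they were 4, since Lcn2 was lost, and 0, since Orm3 was (adjusted p = 0.0591). Added to the main fit, the replicate block changed no other call of a member than those of Saa4 and Orm3. Without fraction 4 in the light zone, it also added Lcn2 for dense against light (limma adjusted p = 0.0613, and 0.0440 with the block). Quantile normalization added Saa4 to those lower in the middle than in the light zone (adjusted p = 0.0461, 0.00177 to 0.134 over its alternatives). Zones moved by 1 fraction added Orm3 to those lower in the dense (adjusted p = 0.0499, 0.00126 to 0.292 over its alternatives) and Lcn2 to those lower in the middle than in the light zone (adjusted p = 0.0421, 0.0421 to 0.320). Members past 2-fold higher in gradient 2 numbered 3 by the median TPM (Saa2 with Saa4 and Crp) and 2 after quantile normalization. Shares of all genes past 2-fold are not given for these alternatives. Past 1.5-fold 5 were higher and 1 lower, beside 6.74% and 16.9% of genes. These counts were 7 and 0 by the median TPM (11.2% and 18.5% of genes). They were 6 and 0 after quantile normalization (9.57% and 11.5%), and 6 and 1 over all fractions (6.55% and 21.8%). The alternatives were applied to this threshold after seeing the data.

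The count of members with dense minus middle below 0 in gradient 1 and above 0 in gradient 2 went from 9 to 3 after quantile normalization, 5 with zones of 3 fractions and 4 with moved zones, alternatives applied to it after seeing the data.

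Differences that were not called turned in direction as follows, and the cause was not tested. After quantile normalization Orm2 was at 0.32 for dense minus light, and Saa4 (0.16), Apcs (0.092) and Lbp (0.29) turned for dense minus middle. Rescaling turned dense minus middle of Saa4 (0.071) and Lbp (0.036), and moved zones turned the same pair (0.086 and 0.0073). Zones of 3 fractions turned middle minus light of Saa1 (0.12), Saa2 (0.12) and Orm1 (0.019).

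Each gradient is 1 mouse, so a call rests on 2 values per zone, and leaving out a gradient leaves a value with no test. Without the replicate block, the p-values measure the spread between these 2 animals within zones, with variances shared across genes by limma. With the block, the mean difference between the animals is removed, and only the spread of their zone differences remains. Depth is unknown, and members under 10 TPM (Orm2, Lcn2) include values listed at 0, so their profiles are the least certain. TPM is a share of each fraction, so a fall of a member and a rise of other RNAs cannot be told apart.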

Other observations

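Saa3, a serum amyloid A gene known to be expressed in macrophages, was chosen after its values were seen. It had means of 5.04 TPM in gradient 1 and 9.57 in gradient 2, a log2 ratio of 0.92, and was higher in gradient 2 in all 17 shared fractions, as were Saa2 and Saa4. Saa3 is also counted above among the 21 other positive acute-phase genes. Of these, 3 were higher in gradient 2 in every shared fraction, beside 5.45% of all genes.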
